A study of Mus musculus with 5 samples.

Results

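The SLC1 family comprises 7 mouse genes that encode sodium-coupled amino acid carriers of the plasma membrane, Slc1a1 to Slc1a7. They were chosen by symbol, as all rows of the FPKM files whose RefSeq transcript belongs to one of them, and all 7 were found among 25414 genes. RNA-seq was examined in 2 replicates of neural stem cells (NSCs) and 3 replicates of STO cells. The NSCs were primary cells of mouse embryonic cortex, labelled C57BL/6 and passages 5 to 8, and were grown on poly-l-ornithine and laminin in neural basal medium with EGF, bFGF, heparin and B27. STO cells are a continuous line of SIM mouse embryonic fibroblasts, used by the authors as feeder cells and as the somatic cell type. They were labelled C57BL/6 and more than 30 passages and were grown in DMEM with fetal bovine serum, nonessential amino acids and glutamine. The paper describes the STO line as resistant to thioguanine and ouabain. How its SIM origin relates to the C57BL/6 label is not given, so that strain may also differ between the groups. No sample was treated or genetically altered according to the labels. Cell type, culture medium and passage differ together between the groups and cannot be told apart. Nothing says whether the replicates were separate cultures. The p-values set a group difference against the spread between these samples, which is partly pooled over genes and may be technical.

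As background, 5 members are the excitatory amino acid transporters, which take up glutamate and aspartate against their gradients by cotransport of sodium and protons and countertransport of potassium. Slc1a3 (GLAST, EAAT1) and Slc1a2 (GLT-1, EAAT2) are the carriers of astrocytes and radial glia that clear glutamate from the extracellular space of the brain, and Slc1a1 (EAAC1, EAAT3) is the form of neurons and epithelia. Slc1a6 (EAAT4) is known from Purkinje cells and Slc1a7 (EAAT5) from the retina. The other members, Slc1a4 (ASCT1) and Slc1a5 (ASCT2), exchange neutral amino acids such as alanine, serine, cysteine and, for Slc1a5, glutamine, and Slc1a5 is a main route of glutamine entry in many proliferating cells.

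The values are FPKM, fragment counts scaled by transcript length and by the depth of the sample, so that levels can be compared between genes. Depth was similar, with 15223341 to 22271895 fragments per sample implied by the deposited intervals, and across the genes tested Pearson's r between replicates was 0.994 for NSCs and 0.995 to 0.996 for STO cells. The labels matched the markers. The summed FPKM of 7 neural stem cell markers was 3834 and 4050.0 in the NSC samples and 0.0509 to 0.0746 in STO cells, with Sox2, Pax6, Olig2 and Fabp7 listed at 0. Fabp7 alone was 2783 and 3041 FPKM in the NSC samples, and all 7 markers had a mean of at least 1 FPKM there. The sum of 6 fibroblast markers was 1352 to 1462 in STO cells and 5.05 to 5.12 in NSCs. The 12292 genes that averaged 1 FPKM or more in NSCs or in STO cells were compared by limma on log2(FPKM + 1), with Benjamini-Hochberg adjustment over all of them. Of these, 41.9% were higher and 43.7% lower in STO cells at an adjusted p under 0.05, or 85.6% in either direction, so that a call alone was common. An exact 0 is not proof of absence in these files. Of 72 genes of ribosomal proteins, which every cell uses, Rps27 was listed at 0 in all 5 samples and Rpl30 in both NSC samples, against 31.7 to 38.2 FPKM in STO cells. A gene is therefore described as listed at 0, and whether such a value was a failed estimate was not tested.

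Of the 7 members, 6 reached this filter, of which 1 was higher (Slc1a5) and 5 were lower (Slc1a1, Slc1a2, Slc1a3, Slc1a4 and Slc1a6) in STO cells, where 85.6% of all genes tested were called. The median of the log2(FPKM + 1) difference over these 6 was -2.64, against -0.023 over all genes tested, and the median absolute difference was 2.64 against 0.74. Slc1a1, Slc1a2 and Slc1a6 passed the filter only through NSCs, where they are high, and so had to be lower in STO cells to pass in this way. Slc1a7 was below the filter in both cell types.

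**Figure D1:**
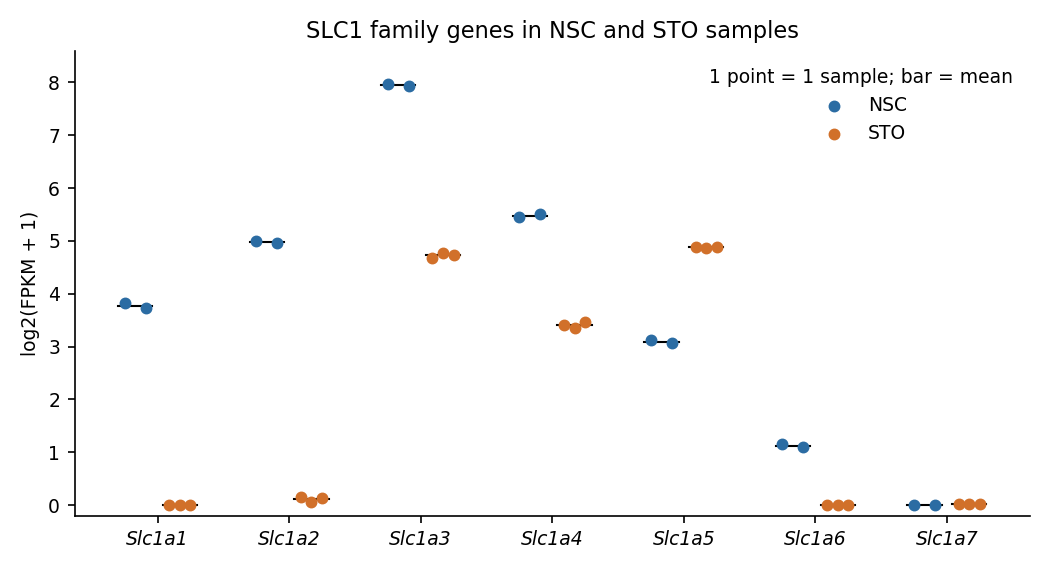
Expression of the 7 SLC1 genes in each sample, on the y axis as log2(FPKM + 1); each point is 1 sample (2 NSC in blue, 3 STO in orange) and each bar the mean of a cell type. Slc1a3 was highest in NSCs, Slc1a5 was the gene with higher STO than NSC samples, and Slc1a7 lay at or near 0 in all samples.

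Slc1a3 was the most abundant family member in NSCs. Its level was 248.7 and 244.7 FPKM in NSC replicates 1 and 2 and 24.6, 26.5 and 25.8 FPKM in STO replicates 1, 2 and 3. Both NSC samples lay far above every STO sample, and the groups did not overlap. NSCs had a mean of 247 ± 2.86 FPKM (SD, n = 2) and STO cells 25.6 ± 0.976 FPKM (SD, n = 3), a 9.64-fold higher mean in NSCs. On the log2(FPKM + 1) scale the difference was -3.22 ± 0.054 (SE), with an adjusted p of 2.45e-08 by limma. In NSCs it ranked 238 and 251 from the top among all genes. In STO cells it ranked between 3112 and 3435 and was thus still among the well expressed genes, with 2330 to 3715 fragments implied per sample. This glial glutamate carrier was lower in the fibroblasts but far from the detection limit. The gene is on the minus strand of mm9 at chr15:8584124-8660807 and had 1 RefSeq transcript, NM_148938.

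Slc1a2, the other glial glutamate carrier, was 31.0 and 30.1 FPKM in NSC replicates 1 and 2. The STO values were 0.105, 0.0457 and 0.0932 FPKM in replicates 1, 2 and 3. The groups did not overlap, and the STO levels rested on few fragments. The mean was 30.5 ± 0.596 FPKM (SD, n = 2) in NSCs and 0.0813 ± 0.0314 FPKM (SD, n = 3) in STO cells, a 375-fold difference in which the STO spread was large relative to its mean. The difference of log2(FPKM + 1) was -4.87 ± 0.053 (SE; limma adjusted p = 6.10e-09). With a pseudocount of 0.1 the log2 difference was -7.42, so its size depended on this choice. Slc1a3 exceeded Slc1a2 by 8.03 and 8.13 times in the NSC samples and by 234 to 579 times in STO cells.

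Slc1a2 had 4 RefSeq transcripts with 2 starts on the plus strand of mm9, at chr2:102498846 and at chr2:102546595. In both NSC samples the whole level was listed for NM_001077514, which begins at the upstream start, and the other 3 transcripts were listed at 0. In STO cells both transcripts of the upstream start were listed at 0, and the low level was divided between NM_011393 (0.0903, 0 and 0.0565 FPKM) and NM_001077515 (0.0148, 0.0457 and 0.0367 FPKM in replicates 1, 2 and 3), which share the downstream start. The transcripts overlap over most of their length, so Cufflinks divided fragments between them by a model, a 0 of 1 transcript can be an outcome of that division, and the listed starts were not tested. The intervals of NM_001077515 implied about 3, 12 and 12 fragments in the STO samples. The 250 bases before each start are shown, because the starts listed in NSCs and STO cells differ. They were read from NCBIM37 (mm9), 5′ to 3′ on the strand of the gene, at chr2:102498596-102498845 for the upstream start and chr2:102546345-102546594 for the downstream start.
Slc1a2 upstream start: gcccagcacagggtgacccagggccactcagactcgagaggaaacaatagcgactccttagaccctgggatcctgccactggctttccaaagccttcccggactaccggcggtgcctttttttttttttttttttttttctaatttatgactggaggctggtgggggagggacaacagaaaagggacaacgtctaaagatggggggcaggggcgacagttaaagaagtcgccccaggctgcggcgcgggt
Slc1a2 downstream start: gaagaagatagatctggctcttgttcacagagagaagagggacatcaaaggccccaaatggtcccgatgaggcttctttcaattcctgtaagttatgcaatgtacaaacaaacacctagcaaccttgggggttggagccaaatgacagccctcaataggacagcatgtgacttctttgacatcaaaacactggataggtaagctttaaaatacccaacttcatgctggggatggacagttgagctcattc
The sequence before the upstream start had a GC content of 54.8% with 11 CpG dinucleotides, and that before the downstream start 44.8% with 1 CpG. The median over 22375 upstream sequences of protein-coding genes was 54.0%. Searched on both strands, neither held the letters CCAAT of a CCAAT box or GGGCGG of a GC box. Neither held those of a TATA box, which are TATAAA. The letters searched for an amino acid response element were TGATGNAAN and were also in neither.

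The same letters were searched for in the 250 bases before the starts of Slc1a3 and Slc1a5, which are shown because these genes were the most abundant members in NSCs and in STO cells, respectively, and differed between them in opposite directions. The sequences are from chr15:8660808-8661057 (minus strand) and chr7:17366445-17366694 (plus strand) of mm9, with matches on either strand in capitals.
Slc1a3: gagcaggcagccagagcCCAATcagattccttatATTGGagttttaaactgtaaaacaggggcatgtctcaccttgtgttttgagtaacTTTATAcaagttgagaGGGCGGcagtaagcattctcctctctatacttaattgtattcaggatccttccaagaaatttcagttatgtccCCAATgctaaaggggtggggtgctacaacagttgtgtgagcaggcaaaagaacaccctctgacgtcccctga
Slc1a5: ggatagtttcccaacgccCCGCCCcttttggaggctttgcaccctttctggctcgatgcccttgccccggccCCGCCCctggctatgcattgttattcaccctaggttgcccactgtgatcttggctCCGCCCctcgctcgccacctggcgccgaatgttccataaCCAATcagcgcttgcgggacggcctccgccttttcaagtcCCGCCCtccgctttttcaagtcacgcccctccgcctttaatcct
The Slc1a3 sequence held the letters of 3 CCAAT boxes, 1 GC box and 1 TATA box, at a GC content of 44.8% and with 2 CpGs. Those of the TATA box lay on the strand opposite to the gene. The Slc1a5 sequence held 1 CCAAT box and 4 GC boxes, without the letters of a TATA box, at a GC content of 61.2% and with 18 CpGs. Among all 22375 upstream sequences, 35.0% held a CCAAT box, 39.6% a GC box, 12.3% a TATA box and 3.12% the amino acid response element, which matched before no start of the family. The matches describe letters only.

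Slc1a1, the carrier of neurons and epithelia that also takes up cysteine, was 13.2 and 12.2 FPKM in NSC replicates 1 and 2 and was listed at 0 in all 3 STO samples. The NSC values rested on 1536 and 1562 implied fragments. In the STO samples 3 fragments would have given 0.0359, 0.0313 and 0.0235 FPKM. True levels up to about these could still give an observed count of 0 by counting error alone. The difference on the log2(FPKM + 1) scale was -3.78 ± 0.051 (SE; limma adjusted p = 1.17e-08). With a pseudocount of 0.1 it was -7.00, so this value is no measure of the fold change. The gene lies at chr19:28909656-28988450 on the plus strand and overlaps 4430402I18Rik on the other strand, whose level was 0.437 and 0 FPKM in the NSC samples and 0 in STO cells. Whether the counting used strand is not given in the sources used here.

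Slc1a6, known from Purkinje cells, was low but measurable in NSCs. It was 1.22 and 1.15 FPKM in NSC replicates 1 and 2, with 78 and 82 implied fragments, and was listed at 0 in all 3 STO samples. Its difference was -1.13 ± 0.039 (SE) on the log2(FPKM + 1) scale (limma adjusted p = 6.45e-07), -3.68 with a pseudocount of 0.1 and -1.87 with the values rescaled to TPM. The gene lies at chr10:78243241-78277570.

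Slc1a7, the retinal form at chr4:107640939-107686137, was listed at 0 in both NSC samples and at 0.0148, 0.0129 and 0.0194 FPKM in STO replicates 1, 2 and 3. The STO values corresponded to 1, 1 and 2 fragments and lay under the 0.0444, 0.0387 and 0.0291 FPKM that 3 fragments would give. Slc1a7 was thus not detectable above 3 fragments in either cell type at this depth.

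The neutral amino acid exchangers differed in opposite directions. Slc1a4 was 42.7 and 44.4 FPKM in NSC replicates 1 and 2 and 9.65, 9.23 and 9.99 FPKM in STO replicates 1, 2 and 3. Every NSC sample was above every STO sample. The means were 43.5 ± 1.17 FPKM (SD, n = 2) and 9.62 ± 0.378 FPKM (SD, n = 3), or 4.52-fold higher in NSCs, and the log2(FPKM + 1) difference was -2.07 ± 0.055 (SE; limma adjusted p = 1.89e-07). The gene lies at chr11:20202183-20232716 on the minus strand.

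Slc1a5 was 7.70 and 7.39 FPKM in NSC replicates 1 and 2. It was 28.7, 28.4 and 28.6 FPKM in STO replicates 1, 2 and 3. All STO samples were higher than both NSC samples, and the STO replicates differed by less than the width of their deposited intervals. STO cells had a mean of 28.5 ± 0.156 FPKM (SD, n = 3) and NSCs 7.54 ± 0.222 FPKM (SD, n = 2), a 3.78-fold higher mean in STO cells, with a log2(FPKM + 1) difference of 1.79 ± 0.049 (SE; limma adjusted p = 2.00e-07). Within a sample, Slc1a4 was 5.54 and 6.00 times the level of Slc1a5 in NSCs, whereas Slc1a5 was 2.86 to 3.07 times the level of Slc1a4 in STO cells. The gene lies at chr7:17366695-17383623 on the plus strand.

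**Figure D2:**
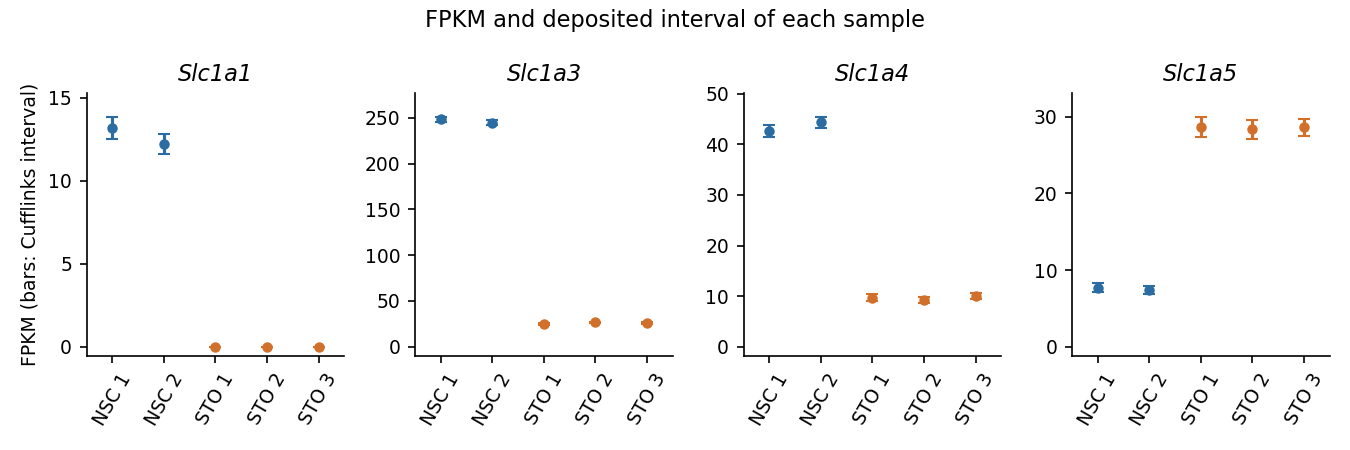
FPKM of Slc1a1, Slc1a3, Slc1a4 and Slc1a5 in each of the 5 samples (y axis from 0, a different range in each panel), with the confidence interval that Cufflinks gave for the value. The intervals of NSC (blue) and STO (orange) samples did not overlap for any of these genes, and Slc1a5 had its higher values, 28.4 to 28.7 FPKM, in STO cells.

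Ordered by level, NSCs had Slc1a3, Slc1a4, Slc1a2, Slc1a1, Slc1a5, Slc1a6 and Slc1a7, and the ranges of neighbouring genes over the 2 replicates did not overlap. STO cells had Slc1a5, Slc1a3, Slc1a4, Slc1a2 and Slc1a7, followed by Slc1a1 and Slc1a6, which were both listed at 0. The closest expressed neighbours were Slc1a5 and Slc1a3 in STO cells. Their ranges did not overlap (28.4 to 28.7 against 24.6 to 26.5 FPKM), and Slc1a3 was 0.857 to 0.934 of Slc1a5 within each sample.

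The sum of the 7 members was 345 and 339.9 FPKM in NSC replicates 1 and 2 and 63.0 to 64.5 FPKM in STO cells. Slc1a3 alone made up 72.1% ± 0.154 (SD, n = 2) of the family sum in NSCs and 40.1% ± 1.16 (SD, n = 3) in STO cells. Slc1a5 made up 2.24% and 2.17% in the NSC samples and 44.7% ± 0.702 (SD, n = 3) in STO cells, and Slc1a4 12.7% ± 0.463 (SD, n = 2) and 15.1% ± 0.592 (SD, n = 3). The 5 glutamate carriers summed to 291 ± 4.19 FPKM in NSCs (SD, n = 2) and 25.7 ± 0.948 FPKM in STO cells (SD, n = 3). The neutral exchangers summed to 51.1 ± 0.951 FPKM (SD, n = 2) and 38.2 ± 0.51 FPKM (SD, n = 3). Glutamate carriers thus held 85.1% of the family mRNA in NSCs and 40.2% in STO cells, where nearly all of that share was Slc1a3.

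**Figure D3:**
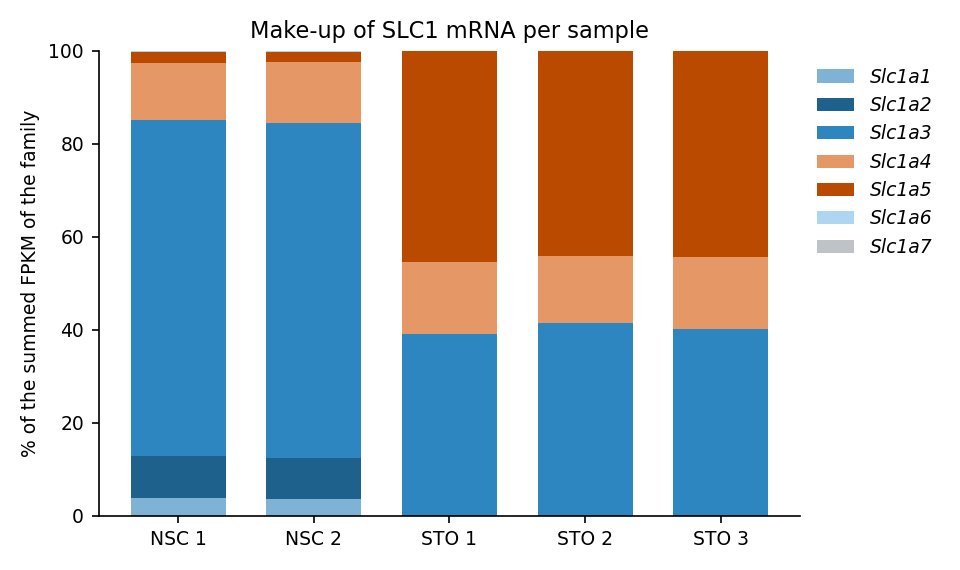
Share of each SLC1 gene in the summed FPKM of the family (y axis, %) in each of the 5 samples; glutamate carriers are in blue and grey tones and the neutral exchangers Slc1a4 and Slc1a5 in orange tones. Slc1a3 filled 72.1% of the sum in NSCs, and Slc1a5 with Slc1a4 filled 58.6% to 60.8% in STO cells.

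NSC cultures can hold cells that have begun to differentiate, and Slc1a2 and Slc1a3 are also markers of astrocytes, so markers of other cell types were read beside them. All 5 astrocyte markers (Gfap, Aqp4, Aldoc, S100b and Aldh1l1) had a mean of at least 1 FPKM in NSCs, and their sum was 221 to 225 FPKM there and 0.372 to 0.614 FPKM in STO cells. The sum of 4 oligodendrocyte markers was 123 to 127 FPKM in NSCs and 0.977 to 1.14 FPKM in STO cells. Most of the NSC sum was Mbp, at 83.4 and 88.3 FPKM, and Mog had a mean of 0.541 FPKM there. The sum of 5 neuron markers was 17.5 to 19.1 FPKM in NSCs and 7.84 to 8.61 FPKM in STO cells, where Rbfox3 and Snap25 were listed at 0. Tubb3 made up nearly all of the neuron marker sum in STO cells, at 7.84 to 8.57 FPKM, and overlapped with its level of 9.25 and 8.14 FPKM in NSCs, while Dcx and Syt1 were at most 0.043 FPKM in STO cells. Markers of microglia and blood (at most 0.394 FPKM in sum, with Aif1 and Cx3cr1 listed at 0 in NSCs) and of endothelium (at most 0.576 FPKM, with Cdh5 listed at 0 in NSCs) were near 0 in all samples. The part of these cell types in the levels of Slc1a1, Slc1a2, Slc1a3 and Slc1a6 was not tested. In these bulk samples a higher share of cells that express a gene and more of its RNA per cell cannot be told apart.

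By the mean absolute difference of log2(FPKM + 1) over the 5 samples, the tested genes most like Slc1a3 were Grcc10 (0.38), Ccnd2 (0.38) and Fyn (0.42). Those most like Slc1a5 were Samhd1 (0.030), Pola1 (0.064) and AI506816 (0.068). Samhd1 was 7.58 and 7.39 FPKM in NSCs and 27.3 to 27.9 FPKM in STO cells. The measure compares levels over 2 cell types only.

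The enzymes that make and use glutamate and glutamine were examined next, since the carriers supply or receive these amino acids. Of 14 genes, 13 were tested, of which 5 were higher, 6 lower and 2 not called, with a median difference of -0.13. This count and those of the later lists are to be read beside the shares over all genes tested. These were 41.9% higher, 43.7% lower and 85.6% in either direction. A gene that reached the filter in 1 cell type only, as Gad1 did in NSCs, had to be higher there. Glul, the glutamine synthetase of glia, was lower in STO cells like Slc1a3 and Slc1a2. It was 179 and 161 FPKM in NSC replicates 1 and 2 and 16.0 to 18.1 FPKM in STO cells, a 10.1-fold higher mean in NSCs and a log2(FPKM + 1) difference of -3.26 ± 0.077 (SE; limma adjusted p = 1.06e-07). Gad1, which makes GABA from glutamate, was 7.37 and 7.72 FPKM in NSCs and listed at 0 in STO cells.

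Glud1, the mitochondrial glutamate dehydrogenase, was 183 ± 12.3 FPKM in NSCs (SD, n = 2) and 99.9 ± 1.49 FPKM in STO cells (SD, n = 3) and passed the test as lower. Psat1, the transaminase of serine synthesis that uses glutamate, was higher in STO cells, at 218 ± 9.23 (SD, n = 3) against 147 ± 4.97 FPKM (SD, n = 2). Genes called higher also included Gpt, Asns and Oat, and the other lower ones were Gpt2 (89.7 ± 1.83 FPKM in NSCs and 14.9 ± 0.763 FPKM in STO cells), Got1 and Gls2. Gpt passed the filter only through STO cells and Gls2 only through NSCs, so the direction of each was set by the filter. Got2, the mitochondrial aspartate transaminase, and Aldh18a1 were not called. Got2 had a mean of 135 FPKM in NSCs and 123 FPKM in STO cells and a difference of -0.13, with a 95% confidence interval of -0.31 to 0.06.

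Other carriers of glutamate comprised 8 genes, of which 5 were tested, 1 higher and 4 lower in STO cells, with a median of -1.04. Slc25a18 and Slc25a13 passed the filter only through NSCs and so had to be lower in STO cells. Slc25a18, a glutamate carrier of the mitochondrial membrane, was 64.2 and 65.2 FPKM in NSCs and 0, 0.0566 and 0.0638 FPKM in STO replicates 1, 2 and 3. Slc25a22, the paralog of Slc25a18, was higher in STO cells (11.6 ± 0.578 against 8.10 ± 1.00 FPKM; limma adjusted p = 0.00204). With its highest transcript in place of the sum, the log2(FPKM + 1) difference was 0.42 against 0.47, and the call was lost (limma adjusted p = 0.31). Slc25a12, an aspartate-glutamate carrier of mitochondria, was 32.6 ± 1.39 FPKM in NSCs (SD, n = 2) and 19.2 ± 0.269 FPKM in STO cells (SD, n = 3). Its paralog Slc25a13 was 3.52 and 3.06 FPKM in NSCs and listed at 0 in STO cells. Slc7a11, the cystine-glutamate exchanger, was 4.17 and 3.20 FPKM in NSCs and 1.18 to 1.31 FPKM in STO cells, and passed as lower. The vesicular glutamate transporters Slc17a6, Slc17a7 and Slc17a8, which load synaptic vesicles of neurons, were all below the filter, at no more than 0.171 FPKM in any sample.

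Among 22 other transporters of neutral amino acids, 13 were tested, of which 5 were higher, 7 lower and 1 (Slc36a1) not called, with a median of -0.47. Most of the lower genes, Slc38a1 and Slc38a3 among them, passed the filter only through NSCs and so had to be lower in STO cells. Slc38a4 passed only through STO cells and had to be higher in them. The system A carrier Slc38a2, which takes up alanine, serine and glutamine, was 44.1 and 48.3 FPKM in NSCs and 134, 137 and 123 FPKM in STO replicates 1, 2 and 3, a 2.84-fold higher mean in STO cells (limma adjusted p = 3.19e-06), in the same direction as Slc1a5. Of its 3 tested relatives, Slc38a4 was also higher in STO cells, at 2.01 to 2.15 FPKM against 0.453 and 0.303 FPKM in NSCs, and the others were lower. Slc38a1 was 25.9 and 25.3 FPKM in NSCs and 0, 0 and 0.0041 FPKM in STO cells, and Slc38a3, the glutamine carrier of astrocytes, was 33.6 and 34.5 FPKM in NSCs and 0.0181, 0.0634 and 0 FPKM in STO cells. The subunits of the large neutral amino acid exchanger, which works in series with Slc1a5, differed less. Slc7a5 was 63.7 ± 0.905 FPKM in NSCs (SD, n = 2) and 43.2 ± 3.13 FPKM in STO cells (SD, n = 3), and its heavy chain Slc3a2 was 64.6 ± 1.14 FPKM and 75.8 ± 3.36 FPKM, respectively. The call of Slc3a2 as higher (limma adjusted p = 0.00986) was lost without NSC replicate 1 (limma adjusted p = 0.056). The glycine transporter Slc6a9 was 37.8 ± 1.23 FPKM in NSCs (SD, n = 2) and 27.0 ± 1.18 FPKM in STO cells (SD, n = 3) and passed as lower, a call that was lost for its highest transcript alone (adjusted p = 0.31). Slc7a6 (19.6 FPKM in each STO sample against 17.0 and 15.2 FPKM in NSCs) and Slc36a4 (11.1 to 11.7 against 4.89 and 5.01 FPKM) were the other genes called higher.

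**Figure D4:**
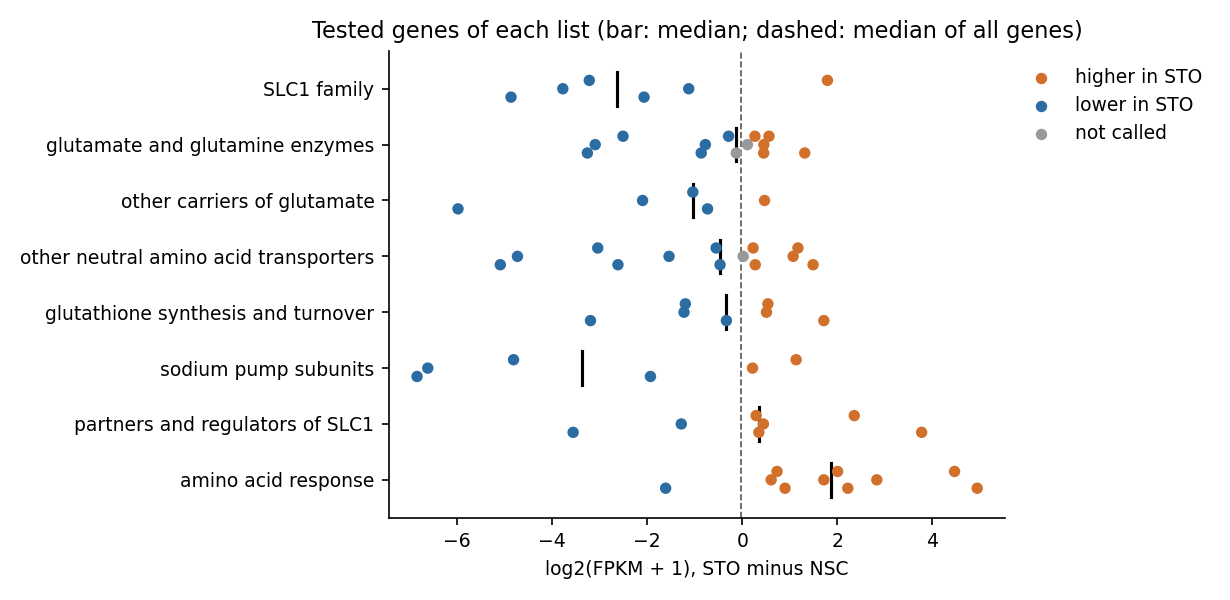
Difference of log2(FPKM + 1), STO minus NSC (x axis), for the tested genes of the SLC1 family and of 7 gene lists (rows); orange points were called higher in STO cells, blue points lower and grey points neither, black bars are medians and the dashed line is the median of all genes tested. The SLC1 median was -2.64, and the sodium pump subunits had a median of -3.37 and the amino acid response genes of 1.86. In each of these lists some genes passed the filter through 1 cell type only and so had to be higher in it. The medians are thus partly set by the filter.

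Uptake by the SLC1 glutamate carriers is driven by the sodium gradient that the sodium pump maintains. Of 7 pump subunits, 6 were tested, of which 2 were higher and 4 lower in STO cells, with a median difference of -3.37. Most of the lower subunits, Atp1b2 among them, passed the filter only through NSCs and so had to be lower in STO cells. Atp1b2, a glial subunit, was 167 and 163 FPKM in NSCs and 0.431, 0.48 and 0.42 FPKM in STO cells. Atp1b1 was 92.3 ± 5.73 FPKM in NSCs (SD, n = 2) and 23.5 ± 1.82 FPKM in STO cells (SD, n = 3). Atp1b3 was 60.4 ± 2.76 and 70.3 ± 4.66 FPKM and was called higher with an adjusted p of 0.0295 by limma, a call that was lost without NSC replicate 1 (adjusted p = 0.18), NSC replicate 2 (0.076), STO replicate 2 (0.059) or STO replicate 3 (0.075), which left 1 subunit higher.

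Among 7 genes whose products bind or regulate SLC1 transporters, all were tested, and 5 were higher and 2 lower in STO cells, with a median of 0.35. Ajuba, a scaffold protein known to bind Slc1a2, was 1.30 and 1.08 FPKM in NSCs and 28.0 to 30.2 FPKM in STO cells, a 24.3-fold higher mean. The kinase Sgk1, known to raise the surface abundance of several carriers, was 12.8 and 12.5 FPKM in NSCs and 65.9 to 74.9 FPKM in STO cells. Arl6ip5, an inhibitor of Slc1a1, was 88.6 ± 1.24 FPKM in NSCs (SD, n = 2) and 113 ± 3.55 FPKM in STO cells (SD, n = 3), where Slc1a1 itself was listed at 0. Slc9a3r1, a scaffold with PDZ domains, was 19.1 ± 1.11 FPKM in NSCs (SD, n = 2) and 7.25 ± 0.438 FPKM in STO cells (SD, n = 3). Arhgef11 and Nedd4l were the other genes called higher.

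Glutathione is made from glutamate, cysteine and glycine. Of 9 genes of its synthesis and turnover, 7 were tested, with 3 higher, 4 lower and a median of -0.34. The catalytic and regulatory subunits of the first enzyme differed in direction. Gclc was 30.3 ± 3.22 FPKM in NSCs (SD, n = 2) and 12.6 ± 0.22 FPKM in STO cells (SD, n = 3), and Gclm was 22.7 and 27.3 FPKM in NSCs and 34.4 to 37.0 FPKM in STO cells. Gss, the second enzyme, was higher in STO cells, at 17.3 to 18.5 FPKM against a mean of 12.1 FPKM in NSCs. Gsr, the glutathione reductase, was lower in STO cells, at 12.7 ± 0.173 against 31.1 ± 1.73 FPKM. Ggt7 was 19.7 and 18.4 FPKM in NSCs and 1.04 to 1.39 FPKM in STO cells, and Chac1, which degrades glutathione, was 2.82 and 2.74 FPKM in NSCs and 11.2 to 11.7 FPKM in STO cells. Chac2 was the other gene called lower.

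The amino acid response, in which the factor Atf4 raises transcription of amino acid carriers and biosynthetic enzymes when amino acids are short, is known to include Slc1a4 and Slc1a5 among its targets. Of 10 genes of this response, all tested, 9 were higher and 1 (Sesn2) was lower in STO cells, with a median of 1.86. Of all genes tested, 41.9% were higher and 43.7% lower. Some of the higher genes, Ddit3 among them, passed the filter only through STO cells and so had to be higher in them. The count and the median are thus partly set by the filter. Chac1 belongs to this list and to that of glutathione. Atf4 had a mean of 79.6 ± 0.03 FPKM in NSCs (SD, n = 2) and 149 ± 9.35 FPKM in STO cells (SD, n = 3), a difference of 0.90 ± 0.068 (SE; limma adjusted p = 2.85e-05). With its highest transcript alone the Atf4 difference was -0.15 (adjusted p = 0.13), so that its direction rested on the sum over transcripts. Ddit3 was listed at 0 in both NSC samples and was 30.5, 28.0 and 30.7 FPKM in STO replicates 1, 2 and 3. Cebpb was 6.74 and 7.19 FPKM in NSCs and 202, 172 and 153 FPKM in STO replicates 1, 2 and 3. Atf5 was 37.4 ± 3.24 FPKM in NSCs (SD, n = 2) and 57.4 ± 1.99 FPKM in STO cells (SD, n = 3). Sesn2 was 29.9 ± 1.01 FPKM in NSCs (SD, n = 2) and 9.09 ± 0.269 FPKM in STO cells (SD, n = 3). Slc1a5 had the direction of most genes of this list and Slc1a4 the opposite one.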

How the data were processed

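RNA-seq of 2 NSC and 3 STO samples was examined, grouped by the sample labels. Per the paper's methods, stranded mRNA libraries were sequenced as paired ends, trimmed, aligned to mm9 with HISAT2 (version given as 4.8.2) and quantified with Cufflinks 2.2.1 on RefSeq. The authors deposited FPKM values with confidence bounds, also in FPKM, for 40201 transcripts named by identifier only; depth was divided out by the authors.

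Symbols were taken from a RefSeq table of GRCm38.p6, used for names only, which matched 39951 transcripts. FPKM of transcripts with 1 symbol and overlapping loci were summed. Coordinates are those of the files in mm9, with starts counted from 1; 95.2% of 19530 genes had a start or an end within 100 bases of that in the NCBIM37 annotation (GENCODE vM1), from which strand was taken. Fragments were implied from the distance of the upper confidence bound to the value, read as 2 SD of Poisson counting; in genes with 1 transcript and few fragments 89.5% to 92.2% lay within 0.05 of a whole number. For genes with several transcripts they are approximate, and intervals and floors of 3 fragments cover counting error only.

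STO cells and NSCs were compared with limma 3.58.1 (R 4.3.3; eBayes with a trend) on log2(FPKM + 1), which understates differences of low genes, for the 12292 genes averaging 1 FPKM or more in NSCs or in STO cells. P-values were adjusted by Benjamini-Hochberg and called under 0.05. The fit was also run on simulated data with far fewer changed genes than were called here, so that run does not speak for the calls in these data. Upstream sequences were read with pysam 0.24.0 and samtools 1.23.1; tables and plots used Python 3.11.15, pandas 2.3.3, numpy 2.4.6 and matplotlib 3.10.9.

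The members and gene lists were chosen with earlier results of these data known. Named were all members and, of each list, the 4 genes with the highest level and the 2 with the largest difference past the threshold, and the 3 genes most like the highest member of each cell type. Other list genes were named after their values were seen, to complete small counts. Some genes that the rule or a small count would name are not reported here by name, but are counted in their lists. Alternatives changed the pseudocount, filter, normalization, variance trend, summing of transcripts and replicates. The study's Hi-C and ChIP-seq were not used here.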

Additional observations from a re-analysis of the deposited data

How the results depend on the processing

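For the 6 tested SLC1 members, no alternative run turned a direction or ended a call, with the log2 difference between -3.26 and -3.08 for Slc1a3, -2.17 and -1.96 for Slc1a4 and 1.76 and 2.03 for Slc1a5, and with a highest adjusted p of 0.000248 (limma); Slc1a6 had a mean over all samples under 1 FPKM and dropped out of 1 filter, which left 4 members lower. Slc1a1 ranged from -7.00 to -3.73, Slc1a2 from -7.42 to -4.78 and Slc1a6 from -3.68 to -0.82, the largest sizes being those with a pseudocount of 0.1. Without a filter on low values, 2 members were higher, the added one being Slc1a7 with a difference of 0.022 and an adjusted p of 0.00916 on 1 to 2 fragments; 2 other glutamate carriers and 1 sodium pump subunit were then higher. With the highest transcript in place of the sum, 0 other glutamate carriers were higher, against 1 with the sum, and Atf4 reversed (-0.15). Got2 reversed with quantile normalization (0.0072) and rescaling to TPM (0.046), neither past the threshold. Rescaling to TPM moved the median of all genes to 0.14, from -0.023.

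Leaving out each replicate in turn gave 1 to 2 sodium pump subunits higher, 4703 to 5066 of all genes higher and 4887 to 5252 lower; without an NSC replicate, the lone NSC sample was assumed to vary like the STO cells. Both cell types have replicates 1 and 2, and nothing says that the numbers pair them. Deviations of same-numbered samples had correlations of 0.0075 and 0.061, and those of different-numbered samples -0.061 to 0.050. With 2 NSC samples the deviations of 1 mirror those of the other, so these values cannot decide on a pairing. A replicate block gave 4994 genes higher and 5252 genes lower (5153 and 5375 without it), 1 sodium pump subunit was higher, and the call of Slc3a2 was lost. The cause of these changes was not tested. Depth limits Slc1a7 and the STO values of Slc1a1, Slc1a2 and Slc1a6.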
